A study of Mus musculus with 3 samples.

Results

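The arrays carried 16194 probes whose only name was a position in the mouse genome, such as chr2:33500594-33501874 on the forward strand. These are probes aimed at stretches between known genes from which long noncoding RNAs were thought to arise. They were chosen here by that name alone, out of 55681 mouse probes, and they stood for 3543 intervals of the mm9 build on chromosomes 1 to 19 and X. An interval taken on 1 strand is called a region below, and there were 4610 regions. The letter F or R that ends a name was read as forward or reverse, and 3 names carried neither. Some intervals named below covered a probe of a known gene, and whether their signal was that gene's own transcript was not tested.

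RNA was measured once in each of 3 sorted populations, so every value below comes from 1 array, there is no spread between replicates and no test could be made. The cells named ES-Lhx6-GFP+ or ES-Lhx6-GFP- were sorted for GFP from aggregates of J14 mouse embryonic stem cells on day 12 of differentiation, with 100 ng/ml Dkk-1, which blocks Wnt signaling, and 6 nM SAG, which activates Hedgehog signaling. J14 is 1 male line of strain background 129S4/SvJae that carries GFP on an Lhx6 bacterial artificial chromosome. Per the labels the cells used here also carried a 692-mCherry enhancer reporter delivered by virus. The paper describes the cells of the arrays as J14 and uses that reporter in lines derived from J14. MGE-GFP+ cells were sorted from the medial ganglionic eminence (MGE) of female embryos at E12.5, in a CD1 background, with the same Lhx6-GFP transgene. GFP marks cells with activity of the Lhx6 transgene and not Lhx6 protein itself. In such bulk samples fewer cells of a type and less RNA per cell cannot be told apart. The number of embryos behind the MGE-GFP+ sample is not given in the sources used here. Line, sex, strain and source of the cells differed together between the MGE and ES samples and cannot be told apart.

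Long intergenic noncoding RNAs are transcribed from DNA between protein-coding genes, are often spliced and polyadenylated, and are not known to encode a protein. Many lie beside genes for transcription factors, and some act on genes nearby or serve as scaffolds for chromatin proteins, while for most no function is known. They tend to be made at low levels and in few cell types, and the developing forebrain is known for many of them. An interval named by position marks a stretch of chromosome and not a mapped transcript, so where its exons lie was not analysed here.

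Lhx6, the gene behind the reporter, was measured first as a check of the GFP labels. Of its 3 probes, 2 were higher in both GFP+ populations, with scaled intensities of 5556 and 16151 in ES-Lhx6-GFP+, 337 and 1162 in ES-Lhx6-GFP- and 12685 and 31441 in MGE-GFP+ cells, while the other one was bright and hardly differed, at 106900, 103330 and 121020 in the same order. A scaled intensity is the intensity after each array was set to the same 75th percentile. Of 8 markers of MGE-derived neurons, 8 were above the control probes on each array. Of the 3 markers of oligodendrocyte precursors, 3 were above the controls in ES-Lhx6-GFP- cells and 1 on each other array, and their summed scaled intensity was 5294 there against 680.1 in ES-Lhx6-GFP+ and 824 in MGE-GFP+ cells. Of the 3 progenitor markers, 3 were above the controls in ES-Lhx6-GFP- cells, with a sum of 14543, against 1 and a sum of 3494 in ES-Lhx6-GFP+ and 2 and a sum of 4999 in MGE-GFP+ cells. The 2 globin genes measured summed to 9055 in MGE-GFP+ cells, 645 in ES-Lhx6-GFP+ and 480.1 in ES-Lhx6-GFP- cells. The part of these other cell types in the differences below was not tested.

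The intervals were mostly short. Their median length was 7304 bases, from 62 bases to 7128487 bases, and 1 was longer than 1 Mb. Both strands were probed in 1067 intervals, the forward strand alone in 1251 and the reverse strand alone in 1222. A region held 1 to 10 probes, with a median of 3, and 690 regions rested on a single probe. Many intervals overlapped each other, and joining those that shared a base left 2226 separate stretches. Each probe was spotted once per array, and the probes of a region share their source, so they are no replicates of a condition.

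A probe was taken as above the control probes where its background-subtracted intensity exceeded the 95th percentile of the array's 106 E1A and ERCC probes, which match no mouse RNA. That level was 377 intensity units for ES-Lhx6-GFP+, 208 for ES-Lhx6-GFP- and 152 for MGE-GFP+ cells. Of the position-named probes, 4334 (26.8%) were above it in ES-Lhx6-GFP+ cells, where 36.8% of all mouse probes were. In ES-Lhx6-GFP- cells 6007 (37.1%) were above it, against 46.9% of all mouse probes, and in MGE-GFP+ cells 5441 (33.6%), against 43.3%. Without the position-named probes the share of the others was 40.9%, 50.9% and 47.3% on the same arrays. The position-named probes were thus above the controls less often on each array. The exact 95% binomial intervals did not overlap, but they cover counting error only and take the probes as independent. Probes of a region share their source, so these intervals are too narrow and serve as no test. The lower share in ES-Lhx6-GFP+ cells went with the higher level of the control probes on that array, of which 86 of 106 were well above background, against 34 on each of the other 2 arrays, and the 2 cannot be told apart.

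Most detected probes were detected everywhere. Of the 16194 probes, 3945 (24.4%) were above the controls on all 3 arrays and 9583 (59.2%) on none. A further 1029 (6.35%) were above them in ES-Lhx6-GFP- and MGE-GFP+ cells but not in ES-Lhx6-GFP+ cells. Another 817 (5.05%) were above them in ES-Lhx6-GFP- cells alone and 431 (2.66%) in MGE-GFP+ cells alone. Probes above the controls in both GFP+ populations but not in ES-Lhx6-GFP- cells were rare, at 36 (0.222%), and 137 (0.846%) were above them in ES-Lhx6-GFP+ cells alone. Among the other mouse probes 38.7% were above the controls on all 3 arrays and 45.8% on none. Their share was 6.05% for ES-Lhx6-GFP- and MGE-GFP+ cells, 4.94% for ES-Lhx6-GFP- cells alone and 2.33% for MGE-GFP+ cells alone. It was 0.279% for both GFP+ populations alone and 0.669% for ES-Lhx6-GFP+ cells alone. These shares for parts of the arrays were close to those of the position-named probes.

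Within a region the probes often differed. Of the 3920 regions with 2 or more probes, 589 (15.0%) had every probe above the controls in MGE-GFP+ cells, 1561 (39.8%) had some and 1770 (45.2%) had none. In ES-Lhx6-GFP- cells 606 had every probe above the controls and 1735 had some, and in ES-Lhx6-GFP+ cells these numbers were 382 and 1482. Of the 147 regions with 10 probes, 15 had all of them above the controls in MGE-GFP+ cells. Over the 4610 regions, 2826 had at least 1 probe above the controls on at least 1 array, 1784 had none, and 556 had every probe above them on all 3 arrays. Probes of short intervals were above the controls less often: in MGE-GFP+ cells the share was 23.0% for intervals of 62 to 1758 bases and 37.1% for those of 25871 bases and more. By chromosome the share in MGE-GFP+ cells ran from 22.4% of the probes on chromosome 15 to 43.3% on chromosome 17, with 36.05% on the X chromosome.

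Among the regions with 10 probes, all above the controls on every array, 5 are given, and none differed as much as 2-fold between any pair of arrays. The region on the forward strand of chr1:183783306-183834531 had mean scaled intensities of 4831 in ES-Lhx6-GFP+, 4630 in ES-Lhx6-GFP- and 6218 in MGE-GFP+ cells. The mean over the probes of a region is geometric throughout. On the forward strand, chr14:65431652-65437902 stood at 1354, 1279 and 1311 on the same 3 arrays, and chr7:49715933-49771497 at 1457, 1331 and 1547. On the reverse strand, chr4:126710640-126721240 stood at 1655, 1161 and 1764.5, and chr5:125190100-125209625 at 763, 681 and 701. The largest difference between 2 arrays in these 5 regions was 0.60 on the log2 scale, in MGE-GFP+ against ES-Lhx6-GFP- cells on chromosome 4. Repeat spots of 1 probe on 1 array had an SD of 0.14 on the log2 scale. From this spread of spots alone, 2 SD of a difference between 2 arrays would be 1.32-fold. It leaves out variation between arrays and between samples.

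Both strands of an interval were often above the controls together. In MGE-GFP+ cells 522 (48.9%) of the 1067 intervals with probes on both strands had at least 1 probe above the controls on each strand, 311 (29.1%) on 1 strand and 234 (21.9%) on neither. In ES-Lhx6-GFP- cells the numbers were 587, 280 and 200, and in ES-Lhx6-GFP+ cells 434, 326 and 307. A clear strand, with every probe above the controls on 1 strand and none on the other, was seen in 40 intervals in MGE-GFP+ cells, 35 in ES-Lhx6-GFP- and 42 in ES-Lhx6-GFP+ cells. The forward strand had a probe above the controls in 64.5% of the 1067 intervals in MGE-GFP+ cells and the reverse strand in 62.5%. The amplification is described differently in the labels and the study's methods, so a signal on both strands was not taken as transcription from both.

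Next the populations were compared pairwise. A probe was called different where it differed at least 4-fold after scaling and was above the control probes on the brighter array. In MGE-GFP+ against ES-Lhx6-GFP- cells 87 position-named probes were called higher in MGE-GFP+ cells and 282 lower, of 13417 with a value, which is 2.75% against a background of 4.54% of all mouse probes (1.14% higher and 3.4% lower). In MGE-GFP+ against ES-Lhx6-GFP+ cells 36 were called higher and 227 lower of 14763, which is 1.78% against 1.93% of all mouse probes (0.407% higher and 1.53% lower). Within the ES cultures 82 were called higher in ES-Lhx6-GFP+ cells and 56 lower of 14828, which is 0.931% against 1.67% of all mouse probes (0.649% higher and 1.02% lower). In each of the 3 comparisons the share of position-named probes was below that of all probes, though only slightly in MGE-GFP+ against ES-Lhx6-GFP+ cells. A call needs a probe above the controls, which position-named probes were less often. A lower share of calls cannot be told apart from the effect of that rule.

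The balance of higher and lower calls depended on how the arrays were scaled. With scaling to the 50th percentile it turned in both comparisons that used the ES-Lhx6-GFP+ array. With quantile normalization and the deposited values it turned within the ES cultures alone. Over all mouse probes ES-Lhx6-GFP+ minus ES-Lhx6-GFP- cells had a median log2 difference of 0.39, MGE-GFP+ minus ES-Lhx6-GFP+ cells one of -0.52 and MGE-GFP+ minus ES-Lhx6-GFP- cells one of -0.07. With scaling to the 50th percentile the split became 50 higher and 126 lower within the ES cultures, 176 higher and 98 lower in MGE-GFP+ against ES-Lhx6-GFP+ cells, and 147 higher and 219 lower in MGE-GFP+ against ES-Lhx6-GFP- cells. With quantile normalization it was 72 and 131, 87 and 158, and 84 and 211 in the same order, and the deposited log2 values gave 34 and 46, 34 and 82, and 34 and 117. These splits were not counted over all mouse probes. Among position-named probes above the controls on both arrays the median differences were 0.12, -0.06 and 0.06 in the same order as the medians above, and -0.32, 0.69 and 0.36 with scaling to the 50th percentile.

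A region was called where its probes differed 4-fold on average, every probe with a value went the same way and at least 1 was above the controls on the brighter array. In MGE-GFP+ against ES-Lhx6-GFP- cells 20 regions were called higher in MGE-GFP+ cells and 81 lower, which is 2.32% of the 4352 regions with a value against 4.82% of all probe names (1.16% higher and 3.66% lower). Of those, 20 and 69 had 2 or more probes, which is 2.36% of such regions against 4.05% of such names (0.837% higher and 3.21% lower). In MGE-GFP+ against ES-Lhx6-GFP+ cells 8 regions were called higher and 99 lower (2.36% of 4528), while of all probe names 2.05% were called, 0.378% higher and 1.67% lower. With 2 or more probes 7 were called higher and 82 lower, against 2.3% of such names, 0.273% higher and 2.03% lower. Within the ES cultures 40 were called higher in ES-Lhx6-GFP+ cells and 9 lower (1.08% of 4531), while of all probe names 1.8% were called, 0.727% higher and 1.07% lower. With 2 or more probes 33 were called higher and 6 lower, against 1.26% of such names, 0.621% higher and 0.643% lower. In all 193 regions from 181 intervals were called in at least 1 comparison, and since each array enters 2 comparisons, the 3 counts are not independent. With scaling to the 50th percentile the splits of regions were 37 higher and 53 lower, 32 higher and 22 lower, and 12 higher and 21 lower in the same order. Quantile normalization gave 20 and 46, 25 and 30, and 14 and 29, and the deposited log2 values 7 and 20, 7 and 11, and 1 and 9. The splits under these settings were not counted over all probe names.

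Called regions rested on different amounts of signal. Of the 69 called lower in MGE-GFP+ than in ES-Lhx6-GFP- cells with 2 or more probes, 32 had every probe above the controls in ES-Lhx6-GFP- cells and 18 had a single one. Of the 20 called higher, 11 had every probe above the controls in MGE-GFP+ cells and 6 a single one. Of the 33 called higher in ES-Lhx6-GFP+ than in ES-Lhx6-GFP- cells, however, 0 had every probe above the controls and 31 had a single one, and of the 82 called lower in MGE-GFP+ than in ES-Lhx6-GFP+ cells 9 had every probe above the controls and 55 a single one. Where 2 or more probes of a region were above the controls on both arrays, the SD between their differences was 0.41 on the log2 scale for MGE-GFP+ against ES-Lhx6-GFP- cells (1169 regions), 0.45 for MGE-GFP+ against ES-Lhx6-GFP+ cells (904 regions) and 0.39 for ES-Lhx6-GFP+ against ES-Lhx6-GFP- cells (960 regions). Repeat spots gave an SD of 0.20 for a difference.

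The 2 largest differences with several probes lay side by side on chromosome 2, within 100 kb of a placed probe (a gene probe whose mm9 position is given in the study's lists) of Lmx1b, a LIM homeobox gene of midbrain dopaminergic, hindbrain serotonergic and dorsal limb cells. The 3 probes of the forward region of chr2:33500594-33501874 gave 1384, 6709 and 1231 in ES-Lhx6-GFP- cells and 275, 1109.5 and 432 in ES-Lhx6-GFP+ cells. In MGE-GFP+ cells they gave 14.95, 17.1 and 14.95 and none was well above background. The region was at least 144-fold lower in MGE-GFP+ than in ES-Lhx6-GFP- cells (log2 difference -7.17, SD between probes 1.25) and at least 32.5-fold lower than in ES-Lhx6-GFP+ cells. It was 4.43-fold lower in ES-Lhx6-GFP+ than in ES-Lhx6-GFP- cells, and it was the only region called lower in each of the 3 comparisons. Over the 7 alternatives of scaling, background, floor, flags and source the log2 difference of MGE-GFP+ against ES-Lhx6-GFP- cells ran from -7.17 to -3.58, with the call kept throughout. Against ES-Lhx6-GFP+ cells it ran from -5.02 to -1.88, and within the ES cultures from -2.59 to -1.98, and each of these calls was lost under 1 of the 7.

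The overlapping forward region of chr2:33496712-33501183 behaved the same way. Its 3 probes gave 770.1, 2829 and 1221 in ES-Lhx6-GFP- cells, 402, 816 and 338 in ES-Lhx6-GFP+ cells and 89.1, 20.2 and 14.95 in MGE-GFP+ cells. It was at least 46.2-fold lower in MGE-GFP+ than in ES-Lhx6-GFP- cells and at least 16.02-fold lower than in the ES-derived GFP+ cells. The placed Lmx1b probe itself gave 278 in ES-Lhx6-GFP+, 791 in ES-Lhx6-GFP- and 113 in MGE-GFP+ cells, a log2 difference of -2.81 for MGE-GFP+ against ES-Lhx6-GFP- cells. Another Lmx1b probe gave 473, 1017 and 243 in the same order, above the controls on each array, with a log2 difference of -2.07.

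Both strands of chr16:46384974-46391331, within 100 kb of a probe of Nectin3, which encodes a cell adhesion molecule of the nectin family, were lower in MGE-GFP+ cells. The 5 reverse probes gave 504 to 1194 in ES-Lhx6-GFP- cells, 129 to 348 in ES-Lhx6-GFP+ cells and 20.6 to 92.3 in MGE-GFP+ cells, so the ranges of the 3 arrays did not overlap. The reverse region was 19.5-fold lower in MGE-GFP+ than in ES-Lhx6-GFP- cells (SD between probes 0.39 on the log2 scale) and 4.09-fold lower in ES-Lhx6-GFP+ than in ES-Lhx6-GFP- cells. The first of these calls held under each of the 7 alternatives. The call within the ES cultures held under 3 of the 7, with log2 differences of -2.47 to -1.34. The forward region was at least 12.9-fold lower in MGE-GFP+ than in ES-Lhx6-GFP- cells (SD between probes 0.93). Of the Nectin3 probes the placed one gave 4203 in ES-Lhx6-GFP-, 562 in ES-Lhx6-GFP+ and 216 in MGE-GFP+ cells, while another gave 5144, 2418 and 2497.

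On chromosome 1 the forward region of chr1:34735032-34781146 and the overlapping reverse region of chr1:34734249-34786649 covered a placed probe of Arhgef4, a gene for an exchange factor of small GTPases. The forward region had a mean of 565 in ES-Lhx6-GFP-, 109 in ES-Lhx6-GFP+ and 25.3 in MGE-GFP+ cells and was at least 22.4-fold lower in MGE-GFP+ than in ES-Lhx6-GFP- cells. The reverse region had means of 976.5, 257 and 66.7, but its 4 probes disagreed, with an SD of 2.84 on the log2 scale. The placed Arhgef4 probe gave 882, 271 and 15.7 in the same order, while another Arhgef4 probe gave 556, 151 and 212.

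Several further regions were lower in MGE-GFP+ cells with every probe in the same direction. The intervals on chromosomes 5 and 14 were chosen after their values were seen, for staying called under each of the 7 alternatives. On the forward strand, chr5:96591892-96606467 stood at 1957 in ES-Lhx6-GFP-, 556 in ES-Lhx6-GFP+ and 158 in MGE-GFP+ cells, a difference of 12.4-fold with an SD between probes of only 0.08 on the log2 scale. The reverse strand of the same interval stood at 1953, 691 and 165 and differed 11.8-fold. On chr14:55433382-55452757, which covered a probe of the predicted gene Gm8865, the reverse region stood at 1674, 483 and 137 (12.2-fold) and the forward region at 2511, 918 and 287 (8.74-fold). A pair of overlapping single-probe regions on the reverse strand, chr8:67550064-67560987 and chr8:67552315-67561235, gave 1883 and 1258 in ES-Lhx6-GFP-, 170.1 and 173 in ES-Lhx6-GFP+ and 40.3 and 45.4 in MGE-GFP+ cells. In ES-Lhx6-GFP- cells the first of them was 46.8 times as bright as in MGE-GFP+ and 11.1 times as bright as in ES-Lhx6-GFP+ cells. Another single-probe region named by size, on the reverse strand of chr8:94849929-94870274, is described with Irx5 below.

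Some of the lower regions were bright in all 3 populations, and these were chosen in the same way. On the reverse strand, chr17:41231055-41249764 stood at 7775 in ES-Lhx6-GFP-, 5584 in ES-Lhx6-GFP+ and 816 in MGE-GFP+ cells, so it was 9.53-fold and 6.84-fold lower in MGE-GFP+ cells. The forward region of chr2:59235155-59242518, which covered a probe of Gm13549, stood at 6867, 4242 and 839 in the same order, 8.19-fold lower in MGE-GFP+ than in ES-Lhx6-GFP- cells. On the forward strand, chr6:127111250-127142925, within 100 kb of a probe of Ccnd2, which encodes cyclin D2, stood at 15852, 9707 and 3125. All 5 of its probes were above the controls on all 3 arrays, and the difference of MGE-GFP+ against ES-Lhx6-GFP- cells was 5.07-fold with an SD of 0.18 on the log2 scale. The Ccnd2 probe gave 7084, 1426 and 1164 in the same order, so its larger step lay between the 2 ES populations, while that of the region lay between the ES-Lhx6-GFP+ and MGE-GFP+ cells.

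Higher in MGE-GFP+ cells stood, first, both strands of chr9:121845920-121858120, an interval that covered a probe of the uncharacterized gene 1700048O20Rik. The 5 forward probes gave 359 to 1147 in MGE-GFP+ cells, 22.4 to 171 in ES-Lhx6-GFP+ cells and 15.0 to 85.3 in ES-Lhx6-GFP- cells, and the 5 reverse probes 256 to 801, 52.7 to 257 and 15.0 to 35.9. All 10 probes were above the controls in MGE-GFP+ cells and 0 in the ES-derived cells. The reverse region was at least 17.8-fold higher in MGE-GFP+ than in ES-Lhx6-GFP- cells (SD between probes 0.32) and the forward region at least 13.7-fold (SD 0.88). Against ES-Lhx6-GFP+ cells the forward region was at least 6.64-fold higher and the reverse region 4.55-fold higher. Over the 7 alternatives the log2 difference from ES-Lhx6-GFP- cells ran from 1.54 to 4.08 (forward) and 1.34 to 4.46 (reverse), each called under 6. That from ES-Lhx6-GFP+ cells ran from 0.64 to 3.74 (forward, called under 5) and from 0.78 to 3.09 (reverse, called under 4). The probe of 1700048O20Rik gave 913 in MGE-GFP+, 72.9 in ES-Lhx6-GFP+ and 31.3 in ES-Lhx6-GFP- cells.

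Others among the largest differences lay on chromosomes 3 and 2. The forward region of chr3:4797557-4798821 stood at 420.4 in MGE-GFP+, 129 in ES-Lhx6-GFP+ and 41.2 in ES-Lhx6-GFP- cells, at least 10.2-fold higher in MGE-GFP+ than in ES-Lhx6-GFP- cells. On the forward strand, chr2:36112819-36114110, within 100 kb of a probe of Ptgs1, which encodes the prostaglandin synthase COX-1, stood at 138, 36.8 and 15.0, but only 1 of its 3 probes was above the controls in MGE-GFP+ cells. The reverse region of chr5:22890322-22939119 differed less but evenly. Its 3 probes gave 1186 to 1283 in MGE-GFP+, 243 to 299.7 in ES-Lhx6-GFP+ and 175 to 211.5 in ES-Lhx6-GFP- cells, which is 6.36-fold (SD 0.17) and 4.62-fold higher in MGE-GFP+ cells. With the forward region of chr17:36131460-36136694, at 645 in MGE-GFP+, 135 in ES-Lhx6-GFP+ and 98.4 in ES-Lhx6-GFP- cells, it was called higher in MGE-GFP+ than in ES-Lhx6-GFP- cells under each of the 7 alternatives.

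Against ES-Lhx6-GFP+ cells, MGE-GFP+ cells had 8 higher regions. Besides those above, the reverse region of chr5:77084398-77086144, which covered a probe of A730089K16Rik, stood at 842 in MGE-GFP+, 135 in ES-Lhx6-GFP+ and 249 in ES-Lhx6-GFP- cells and was 6.23-fold higher in MGE-GFP+ than in ES-Lhx6-GFP+ cells. On the reverse strand, chr3:126969590-126972626 was called with 1 of 3 probes above the controls, and the single-probe forward region of chr5:35893909-35899497 gave 439 in MGE-GFP+, 99.5 in ES-Lhx6-GFP+ and 172 in ES-Lhx6-GFP- cells. The forward region of chr7:86680928-86700632, named after its values were seen because it lies within 100 kb of a probe of Mir9-3hg, the host gene of a microRNA of neural progenitors and neurons, stood at 652 in MGE-GFP+, 149.6 in ES-Lhx6-GFP+ and 215 in ES-Lhx6-GFP- cells. Its difference from ES-Lhx6-GFP+ cells was 4.36-fold, and the Mir9-3hg probe gave 6696, 784 and 957 in the same order.

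Among the regions lower in MGE-GFP+ than in ES-Lhx6-GFP+ cells, those beside Lmx1b are given above, and the others named by size had 1 probe each above the controls in ES-Lhx6-GFP+ cells. The forward region of chr10:69667411-69678033 was called on 1 of its 3 probes, the only one with a value, at least 26.4-fold lower in MGE-GFP+ cells. Likewise the forward region of chr3:93159107-93159613 rested on 1 of 3 probes, at a log2 difference of -3.31. On the forward strand, chr11:97276846-97310021 stood at 348 in ES-Lhx6-GFP+, 211 in ES-Lhx6-GFP- and 39.7 in MGE-GFP+ cells, with 1 of its 2 probes above the controls in each ES population. Of single-probe regions, the forward one of chr17:21752466-21793451 gave 421 in ES-Lhx6-GFP+, 52.4 in ES-Lhx6-GFP- and 18.5 in MGE-GFP+ cells. The reverse one of chr8:124397412-124398022, within 100 kb of a probe of the amino acid transporter gene Slc7a5, gave 373, 325 and 46.1.

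Of the 9 regions called lower in ES-Lhx6-GFP+ than in ES-Lhx6-GFP- cells, 6 had 2 or more probes, and 1, the single-probe region of chr8:67550064-67560987, was called under each of the 7 alternatives. On the reverse strand, chr4:54851872-54866706 gave 309.6 to 673 over 5 probes in ES-Lhx6-GFP- cells, 51.2 to 121 in ES-Lhx6-GFP+ cells and 75.9 to 161 in MGE-GFP+ cells, a mean 5.73-fold lower in ES-Lhx6-GFP+ than in ES-Lhx6-GFP- cells, but it was called under 4 of the 7 alternatives and its log2 difference ran from -3.50 to -0.40. The 5 forward probes of chr9:14460976-14488051 gave 781 to 1520 in ES-Lhx6-GFP- cells, 138 to 269 in ES-Lhx6-GFP+ and 186 to 270.2 in MGE-GFP+ cells. That region was 5.44-fold lower in ES-Lhx6-GFP+ and 4.67-fold lower in MGE-GFP+ than in ES-Lhx6-GFP- cells, so both GFP+ populations were low. On its reverse strand the ES-Lhx6-GFP+ level was 4.16-fold lower, called under 4 of the 7 alternatives with log2 differences of -3.02 to -1.35. The single-probe forward region of chr17:95149413-95174473 gave 229 in ES-Lhx6-GFP+, 1259 in ES-Lhx6-GFP- and 787 in MGE-GFP+ cells.

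Regions higher in ES-Lhx6-GFP+ cells were mostly called on 1 probe above the controls. Among those named by size, chr13:98062189-98066613 on the forward strand, within 100 kb of a probe of Enc1, which encodes an actin-binding protein of neurons, had 2 of 3 probes above the controls and stood at 341 in ES-Lhx6-GFP+, 45.5 in ES-Lhx6-GFP- and 45.7 in MGE-GFP+ cells. The forward regions of chr14:25924039-25924372 and chr15:3946037-3972747 had 1 probe above the controls each and stood at 137 and 230.2 in ES-Lhx6-GFP+ cells, 16.3 and 34.3 in ES-Lhx6-GFP- and 21.4 and 37.1 in MGE-GFP+ cells. The single-probe reverse region of chr9:40029344-40050160 gave 523, 77.5 and 106 in the same order. A single-probe region of 434 bases on the forward strand of chromosome 18 gave 927 in ES-Lhx6-GFP+, 92.3 in ES-Lhx6-GFP- and 115 in MGE-GFP+ cells. Of the 40 regions called higher in ES-Lhx6-GFP+ than in ES-Lhx6-GFP- cells, it was the only one called under each of the 7 alternatives.

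The strands of an interval mostly moved together. Over the 614 intervals with a probe above the controls on each strand, the differences of MGE-GFP+ against ES-Lhx6-GFP- cells on the forward and reverse strand had a Pearson correlation of 0.76 and a Spearman correlation of 0.71, given as a description since both strands come from the same 2 arrays. The Pearson values were 0.60 for MGE-GFP+ against ES-Lhx6-GFP+ cells (563 intervals) and 0.51 for ES-Lhx6-GFP+ against ES-Lhx6-GFP- cells (607 intervals). In MGE-GFP+ against ES-Lhx6-GFP- cells 26 intervals with both strands probed were called on at least 1 strand, 10 of them on both in the same direction and 0 in opposite directions. In the other 2 comparisons 2 of 42 and 1 of 13 such intervals were called on both strands.

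To find which regions lay near developmental genes, a list of 349 genes of forebrain, midbrain, hindbrain, neural crest and pluripotent development was set against mm9 positions of gene probes given in the study's lists, which could be read for 1148 genes, 102 of them on the list. Those lists hold genes that differed between these same arrays, so the values of a neighbouring gene are a description and its direction is no independent evidence. Within 100 kb of such a probe lay 614 regions for any gene and 49 for 21 developmental genes, and 35 of the 49 had at least 1 probe above the controls on at least 1 array. Of the 49, 5 were called in MGE-GFP+ against ES-Lhx6-GFP- cells, 3 in MGE-GFP+ against ES-Lhx6-GFP+ cells and 2 within the ES cultures. That is 10.4%, 6.12% and 4.08% of those with a value, beside 2.32%, 2.36% and 1.08% of all regions and 5.42%, 3.76% and 1.31% of regions within 100 kb of any placed probe. With windows of 500 kb and 50 kb the first of these counts was 10 of 220 and 3 of 26. Among the calls within 100 kb, the 2 regions beside Lmx1b overlapped each other, as did the 2 beside Irx5. The shares near developmental genes thus count some stretches more than once.

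Regions beside developmental genes were not more even than others. Of 34 with a probe above the controls in MGE-GFP+ or ES-Lhx6-GFP- cells, 25 (73.5%) differed less than 2-fold between them, 1 was at least 2-fold higher in MGE-GFP+ cells and 8 lower, while over all 2750 such regions 82.0% differed less than 2-fold. Beside Gli1, a target and effector of Hedgehog signaling whose probe gave 958.5 in ES-Lhx6-GFP- and 35.0 in MGE-GFP+ cells, the 4 regions differed by -0.39 to 0.46 on the log2 scale. The 2 longer ones, on both strands of chr10:126818382-126856582, had mean levels of 921 and 639 in ES-Lhx6-GFP- and 1267 and 711 in MGE-GFP+ cells. Beside Sox10, a transcription factor of neural crest and oligodendrocyte lineage, the forward region of chr15:78996470-79046809 stood at 383 in ES-Lhx6-GFP+, 398 in ES-Lhx6-GFP- and 366 in MGE-GFP+ cells, while the Sox10 probe gave 154, 1202 and 37.6. Beside Nanog, a factor of pluripotent cells, the reverse region of chr6:122741562-122743423 stood at 1096, 1102 and 1148, and the forward region of chr6:122725638-122752828 had 2 of its 5 probes above the controls on each array.

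Beside Irx5, a homeobox gene of the Iroquois family with roles in midbrain, hindbrain and heart, 2 reverse regions were called. The single-probe region of chr8:94849929-94870274 gave 308 in ES-Lhx6-GFP-, 98.995 in ES-Lhx6-GFP+ and 14.95 in MGE-GFP+ cells, where it was not well above background, which makes it at least 20.6-fold lower in MGE-GFP+ than in ES-Lhx6-GFP- cells. The longer region of chr8:94841965-94881130 had 2 of 5 probes above the controls in ES-Lhx6-GFP- cells and stood at 127, 61.7 and 20.0, at least 6.35-fold lower in MGE-GFP+ than in ES-Lhx6-GFP- cells. The first was called under 5 of the 7 alternatives, with log2 differences of -4.37 to -0.71, and the longer one under 2, with -2.67 to -0.49. The Irx5 probe gave 519, 98.9 and 14.95. Beside the Hoxa genes, which pattern the hindbrain and spinal cord along the body axis, the forward region of chr6:52046805-52072744 had means of 84.6 in ES-Lhx6-GFP+, 54.2 in ES-Lhx6-GFP- and 24.7 in MGE-GFP+ cells and was called lower in MGE-GFP+ than in ES-Lhx6-GFP+ cells on 1 of 6 probes above the controls, under 1 of the 7 alternatives. Its reverse strand had 3 of 9 probes above the controls in ES-Lhx6-GFP- cells and 0 on either other array. The Hoxa2, Hoxa3 and Hoxa4 probes gave 766, 1261 and 356 in ES-Lhx6-GFP- cells and 14.95 each in MGE-GFP+ cells. In ES-Lhx6-GFP+ cells they gave 198, 299 and 88.2, none of them above the controls.

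Lhx6 itself, the gene whose transgene served for sorting, had a probed interval at the edge of the window. On chr2:35828611-35838083 the 10 forward probes had means of 221 in ES-Lhx6-GFP+, 119 in ES-Lhx6-GFP- and 153 in MGE-GFP+ cells, and the 6 reverse probes of 287, 139 and 198. The differences of MGE-GFP+ against ES-Lhx6-GFP- cells were 0.35 and 0.51 on the log2 scale, and 3 of 10 and 3 of 6 probes were above the controls in MGE-GFP+ cells. Beside Pou3f1, a POU factor of migrating neurons and oligodendrocytes whose probe gave 2479 in MGE-GFP+, 606 in ES-Lhx6-GFP+ and 280 in ES-Lhx6-GFP- cells, the 3 regions differed by 0.15 to 0.91 in MGE-GFP+ against ES-Lhx6-GFP- cells. Beside Olig1 and Olig2, which encode factors of the oligodendrocyte and motor neuron lineages, the single region with a probe above the controls, the reverse one of chr16:91187988-91188416, stood at 220.4 in ES-Lhx6-GFP+, 131 in ES-Lhx6-GFP- and 92.9 in MGE-GFP+ cells. The Olig1 probe gave 69.6, 611 and 14.95 in the same order and the Olig2 probe 456, 3481 and 772.

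Of the remaining developmental neighbours, 1 region was called, on the reverse strand beside Foxp4. Foxp4 is a forkhead gene. Its placed probes gave 48.6 and 371 in ES-Lhx6-GFP+, 299 and 1556 in ES-Lhx6-GFP- and 59.6 and 308.5 in MGE-GFP+ cells. The single-probe forward region of chr17:48068261-48087905 gave 3856 in ES-Lhx6-GFP+, 7653 in ES-Lhx6-GFP- and 3723 in MGE-GFP+ cells. On the reverse strand, chr17:48072598-48073137 was called higher in ES-Lhx6-GFP+ than in ES-Lhx6-GFP- cells, at 162 against 32.8, on 1 of 3 probes above the controls, and under 1 of the 7 alternatives. The placed Foxp4 probes went the opposite way in that comparison. Beside Fabp7, a marker of radial glia, 2 regions stood at 143 and 155 in ES-Lhx6-GFP+, 38.8 and 75.3 in ES-Lhx6-GFP- and 36.5 and 46.9 in MGE-GFP+ cells, with at most 1 probe above the controls. Beside Wnt7b, a Wnt ligand of the forebrain, the reverse region of chr15:85299777-85300166 stood at 1578, 1466 and 1628, and the other 4 with signal differed by -1.33 to 0.07 in MGE-GFP+ against ES-Lhx6-GFP- cells. Beside Hoxb2 and Hoxb3 the 4 regions with signal differed by -0.45 to 0.35, beside Dlk1, an imprinted gene next to a cluster of noncoding RNAs, the forward region of chr12:110769101-110771113 by 0.04, and beside Sall4, a factor of stem cells, the reverse region of chr2:168606645-168621395 by 0.27. Beside Irx2 none of the probes of the single region nearby was above the controls.

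Over all placed gene probes, 32 (5.42%) of the 590 regions with a value within 100 kb were called in MGE-GFP+ against ES-Lhx6-GFP- cells, beside 2.32% of all regions, and the nearest such probe went the same way as the region for 30 and the opposite way for 2. Against ES-Lhx6-GFP+ cells the numbers were 19 and 4 of 611 regions (3.76% called, beside 2.36%), and between the 2 ES populations 5 and 3 of 611 (1.31%, beside 1.08%). The placed probes were themselves selected for differing between these arrays, so these counts are a description. The reverse region of chr19:5834117-5835940, near a probe of the nuclear noncoding RNA gene Neat1, stood at 767 in ES-Lhx6-GFP-, 210.0 in ES-Lhx6-GFP+ and 69.6 in MGE-GFP+ cells, and the Neat1 probe gave 1015, 435 and 102. The forward region of chr15:62046023-62082530, which covered a probe of the noncoding gene Pvt1, had 3 of 3 probes above the controls in ES-Lhx6-GFP- cells and stood at 317, 191 and 46.5 in the same order. The placed Pvt1 probe gave 748, 283 and 32.7, while another Pvt1 probe gave 345, 211 and 342. Both regions were named after their values were seen.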

How the data were processed

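RNA of 3 sorted populations was measured on 3 one-color Agilent arrays, 1 per population, on 1 slide, so their number limits the precision. The authors extracted the images with Agilent Feature Extraction (version 10.7.3.1 per the file headers, build mm9), and the deposited files hold the intensity of each spot after background subtraction, with no scaling between arrays. The amplification and array format are described differently in the paper and the labels. The deposited log2 table lay within 0.0453 of the quantile-normalized median spot signal for 99% of probes and was used as an alternative.

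Spots marked as outliers were left out (135 for ES-Lhx6-GFP+, 137 for ES-Lhx6-GFP- and 98 for MGE-GFP+ cells), spots of a probe were averaged, and log2 intensities were scaled to each array's 75th percentile. A probe not well above background was raised to the lowest level of probes that were (22.4, 15.0 and 14.95), a fold against such a probe was taken as a bound, and none was given where neither array measured it. The code for the calls was tested on simulated data, which bears on the code alone. Regions named are, by size of difference, up to 5 called regions with 2 or more probes and up to 3 with 1 probe per comparison and direction, the 5 with most probes above the controls throughout, and those near a developmental gene; 1 region that this rule names is not reported here. Members and lists were chosen with earlier results of these data known. Gene positions came from partly readable supplementary lists of the study. Python 3.11.15, numpy 2.4.6, pandas 2.3.3, scipy 1.17.1 and limma 3.58.1 in R 4.3.3 were used.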

Additional observations from a re-analysis of the deposited data

Results flagged for a closer look

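The arrays also carried 57 probes for 12 long noncoding RNAs under names of their own, which enter none of the comparisons above. For 8 of them most of the probes were above the control probes on at least 1 array, and the number given is the most on any array. For H19, an imprinted RNA, this was 5 of 5, with mean scaled intensities of 3267 in ES-Lhx6-GFP+, 13955 in ES-Lhx6-GFP- and 215 in MGE-GFP+ cells. For XIST, the RNA of the inactive X chromosome, it was 5 of 5, in MGE-GFP+ cells alone, at 3858 against 55.0 and 21.2, and the labels give the embryos as female and the ES line as male. For KCNQ1ot1 and TUG1 it was 5 of 5 and for NEAT2 3 of 3, on every array. For BRN1-A it was 4 of 4 on every array, at 2341, 4336 and 6556.5 in the same order. For NEAT1 it was 4 of 5, at 252, 465 and 49.96, and for lincP21 4 of 5, at 168, 237 and 39.7, in both cases in ES-Lhx6-GFP- cells. With 1 array per population none of these differences was tested.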

How the results depend on the processing

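No paired analysis was possible because each population had 1 array and the labels carry no replicate numbers, and for the same reason no replicate could be left out. The share of position-named probes above the controls (ES-Lhx6-GFP+, ES-Lhx6-GFP-, MGE-GFP+) was 14.8%, 16.5% and 14.95% at the 99th percentile of the control probes, 4.46%, 5.86% and 3.95% at the highest control probe and 28.2%, 42.0% and 40.3% with ERCC probes alone. Calls below are given for ES-Lhx6-GFP+ against ES-Lhx6-GFP-, MGE-GFP+ against ES-Lhx6-GFP+, and MGE-GFP+ against ES-Lhx6-GFP- cells in this order. Under these settings calls were counted for position-named probes and regions alone. No share over all mouse probes stands beside them, so a change that ran through all probes cannot be told apart. Called probes numbered 86, 145 and 207 without background subtraction, 80, 116 and 151 in the deposited table, 23, 72 and 112 with the control probes as floor, 69, 103 and 147 with normexp on median signals (chosen after seeing the data), 1580, 2392 and 657 where any probe well above background counted, 847, 1069 and 1449 at 2-fold and 43, 72 and 150 at 8-fold. Called regions numbered 14, 22 and 34, 10, 18 and 27, 13, 22 and 21, and 10, 14 and 26 under the first 4 of these settings. They were 322 and 534 in the first 2 comparisons with any probe well above background, 359, 496 and 455 at 2-fold, 6, 12 and 28 at 8-fold, 20, 46 and 37 with overlapping regions joined, and 15, 32 and 55 with every probe above the controls (chosen after seeing the data). Scaling to the 50th percentile gave 54 in the second comparison, and quantile normalization 55 in the second and 66 in the last. Called regions near developmental genes numbered 4, 9 and 10 within 500 kb and 0, 1 and 3 within 50 kb. The planned normexp on mean signals was not run, and normexp on median signals took its place. The cause of these changes was not tested. Of 405 alternative values of named regions 318 moved and 0 reversed. Called under each of the 7 alternatives were 1 of 40 higher and 1 of 9 lower regions in the first comparison, 0 of 8 and 2 of 99 in the second, and 2 of 20 and 13 of 81 in the last.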
